A study of Mus musculus with 9 samples.

Results

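Cholesterol synthesis and its control by sterol regulatory element-binding proteins (SREBPs) were examined in back skin with imiquimod dermatitis, with and without mechanical stretch. The genes were taken from a list of 30 symbols, chosen by their known place in sterol synthesis, sensing, transport and efflux. That rule uses no measured value, but the list was chosen with earlier results of these data known. Of the 30 symbols, 27 were found among the 19505 genes named on the array, each by a single feature. A feature is a transcript cluster, the unit for which the array gives a value. Srebf1, Acat2 and Tm7sf2 were not found under their symbols and were not analysed here. The list does not hold every gene of the pathway.

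All mice were of strain C57BL/6J, 8 weeks old, and 5% imiquimod cream, which activates a Toll-like receptor and induces psoriasis-like dermatitis, was applied daily for 7 days on back skin from which the hair had been removed. In the stretch group (IMQ+F, 5 arrays) a plastic device glued to the skin was also elongated by 10 mm on the first day, and in the no-stretch group (IMQ+N, 4 arrays) the skin was not stretched. One protocol text serves both groups, so whether unstretched skin also carried the glued device is not given, and no array of skin without imiquimod was analysed here. Total RNA was labelled with biotin and measured on Affymetrix arrays, and levels are log2 values as deposited, so that a difference of 1 is a doubling. Whether every array stands for a separate mouse is not stated, and the p-values therefore rest on variation among arrays that could be technical.

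Array medians lay between 5.96 and 6.06 over all genes, and no arrays held identical values. Across genes, no-stretch array 3 resembled the rest least, with a median r of 0.975 to other arrays, where the remaining 8 had 0.980 to 0.987. Keratinocyte markers were read beside the skin label: the mean level over 9 basal and spinous markers was 15.40 to 16.35 on stretched arrays and 16.08 to 16.42 on non-stretched ones. Skeletal muscle markers were also high, with means of 13.51 to 15.46 and 14.20 to 14.94. With no other tissue to compare, these levels do not test the label. With 5 and 4 arrays, log2 changes of the 27 genes had standard errors with a median of 0.30, against 0.21 over all genes.

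Cells make cholesterol from acetyl-CoA by way of mevalonate and squalene. SREBP-2, encoded by Srebf2, switches on most of the enzymes; its precursor is escorted out of the endoplasmic reticulum by SCAP when membrane sterol is low and is held back by INSIG proteins when sterol is plentiful. Liver X receptors (LXRs) sense oxysterols and switch on the efflux pumps in the opposite situation. In skin, the epidermis makes much of its own cholesterol for the barrier lipids, and sebaceous glands make sterols and fatty acids for sebum.

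None of the 27 genes passed the test of stretched against non-stretched skin after correction over all genes. At a threshold of 0.05 on limma's p, adjusted by the Benjamini-Hochberg method for the 19505 genes fitted, 0 of 27 passed, where 0.246% of all genes did (48 genes). Without adjustment 4 of 27 (14.8%) had p under 0.05, which is close to the 13.0% of all genes. These were Mylip, Scap and Dhcr7, all lower on average with stretch, and Nr1h3, which was higher on average. The fitted change was negative for 17 of the 27 genes (63.0%, against 50.4% of all genes), with a median of -0.21 against -0.0034 over all genes. That count was 20 under quantile normalization and 15 under median centring, which moved the median of all genes to 0.02 and 0.06. Without no-stretch array 1 the median of the 27 changes was 0.0025, so that array decided its sign. The groups failed to overlap for 1 gene, Mylip, which was lower with stretch (3.70% of the 27, where 4.54% of all genes did not overlap and 2.15% were lower without overlap). A p that misses the threshold does not show equal levels: the widest 95% confidence interval in the plot of changes, that of Cyp51, runs from -1.65 to 0.67. In whole skin, fewer cells of a type and less RNA per cell cannot be told apart.

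**Figure D1:**
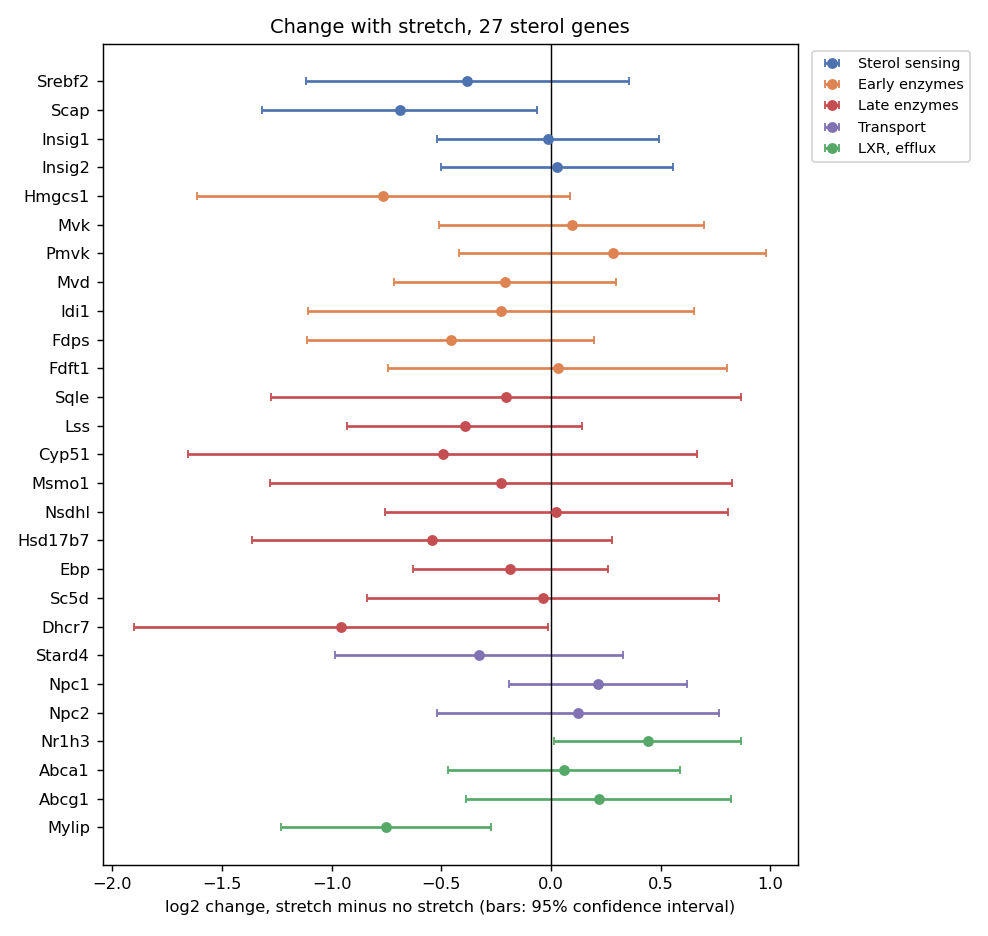
Log2 change, stretch minus no stretch, of each of the 27 genes with its 95% confidence interval from limma; points are coloured by role, and the vertical line marks no change. The intervals of Scap, Dhcr7 and Mylip lie below 0 and that of Nr1h3 above 0 before correction over all genes, while the other intervals include 0.

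Of the genes that sense sterol and control SREBP, 4 of 5 were measured and none passed the test. Srebf2 had levels of 10.50, 11.75, 11.82, 10.96 and 11.94 on the 5 stretched arrays, against 12.19, 12.27, 11.47 and 11.17 on the 4 non-stretched arrays. Stretched arrays 1 and 4 lay below all others, and the remaining values of the groups were mixed. The change of Srebf2 was -0.38 (95% confidence interval -1.12 to 0.36, limma adjusted p = 0.669). Scap, the escort protein, was at 8.42, 8.46, 9.28, 8.60 and 9.47 with stretch, against 10.00, 9.82, 9.44 and 8.89 without. Stretched arrays 1, 2 and 4 were below every non-stretched array, and stretched arrays 3 and 5 lay inside the non-stretched range. Its change of -0.69 (standard error 0.29) is 1.61-fold lower, with limma adjusted p = 0.338.

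The INSIG genes, which encode the retention proteins, were nearly level between the groups. Insig1, itself a target of SREBP and a common gauge of its activity, was at 8.77, 9.18, 9.51, 8.67 and 9.10 with stretch, against 9.57, 9.01, 9.09 and 8.57 without. The stretched arrays lay inside the non-stretched range, and the change was -0.01 (95% confidence interval -0.52 to 0.49), that is, between 0.697-fold and 1.41-fold. Its sign turned under median centring (0.05). Insig2, the isoform that does not depend on SREBP in the same way, had a change of 0.03 (-0.50 to 0.56).

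Of the enzymes from acetyl-CoA to squalene, 7 of 8 were measured, and their fitted changes lay between -0.76 and 0.28 with none past the test. Hmgcs1, the cytosolic HMG-CoA synthase at the head of the pathway, was at 13.87, 13.99, 15.21, 13.36 and 14.56 with stretch, against 15.67, 15.37, 14.68 and 14.12 without. Stretched array 4 was the lowest of all 9 and non-stretched array 1 the highest, with overlap between. Its change was -0.76 (95% confidence interval -1.61 to 0.09, limma adjusted p = 0.435). Fdps, which makes farnesyl diphosphate, was at 7.50, 6.93, 8.33, 6.87 and 7.15 with stretch, against 7.85, 7.90, 8.21 and 7.30 without. Stretched array 3 was the highest of the 9 and the other stretched arrays, apart from array 1, were below all non-stretched ones. The change of Fdps was -0.46 (standard error 0.30, limma adjusted p = 0.553).

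Mvd, the mevalonate diphosphate decarboxylase, and Idi1, the isopentenyl diphosphate isomerase, had changes of -0.21 and -0.23. The mevalonate kinases Mvk and Pmvk had changes of 0.09 and 0.28, and Fdft1, squalene synthase, of 0.03. Mvk was low, below the array medians given above on all arrays but stretched arrays 3 and 5. Fdft1 turned to -0.05 under quantile normalization. Pmvk stood at 10.12 on stretched array 3 and between 8.36 and 9.13 on the other 8 arrays, and without that array its change was -0.01.

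Of the enzymes that turn squalene into cholesterol, 9 of 10 were measured, 8 had a negative fitted change and none passed the test. Sqle, squalene epoxidase, a rate-limiting step of the pathway, was at 10.91, 9.97, 12.68, 10.33 and 11.48 with stretch, against 11.91, 11.52, 11.28 and 10.41 without. Both the highest and the lowest values of all 9 arrays came from stretched skin, and the non-stretched arrays lay inside that span. The change was -0.21 (95% confidence interval -1.28 to 0.86, limma adjusted p = 0.891), and without stretched array 3 it was -0.61. Lss, lanosterol synthase, was at 9.81, 9.52, 10.38, 9.47 and 10.08 with stretch, against 10.66, 10.54, 9.89 and 9.90 without. Its groups overlapped, with a change of -0.39 (standard error 0.24, limma adjusted p = 0.531).

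Hsd17b7, a sterol ketone reductase of the demethylation steps, was at 11.51, 11.53, 12.02, 10.80 and 12.05 with stretch, against 12.96, 12.63, 11.86 and 11.05 without. Non-stretched arrays 1 and 2 were above all others and non-stretched array 4 was the second lowest, so that the groups overlapped. The change was -0.54 (standard error 0.38, limma adjusted p = 0.573). Dhcr7, the reductase of the last step, was at 9.29, 7.70, 9.51, 7.67 and 8.86 with stretch, against 10.05, 10.15, 9.32 and 8.75 without. Stretched arrays 2 and 4 stood more than 1 log2 unit below every other array, while the remaining 3 lay inside the non-stretched range. Dhcr7 had the most negative change of the 27 genes, -0.96 (95% confidence interval -1.90 to -0.02), or 1.94-fold lower, and did not pass (limma adjusted p = 0.377).

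The other late enzymes were Cyp51, the lanosterol demethylase, with a change of -0.49, Msmo1, the methylsterol oxidase, with -0.23, and Ebp, a sterol isomerase, with -0.19. Nsdhl, the dehydrogenase that works beside Hsd17b7, and Sc5d, a sterol desaturase, had changes of 0.02 and -0.04. The sign of Nsdhl turned under quantile normalization (-0.04) and that of Sc5d under median centring (0.03).

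**Figure D2:**
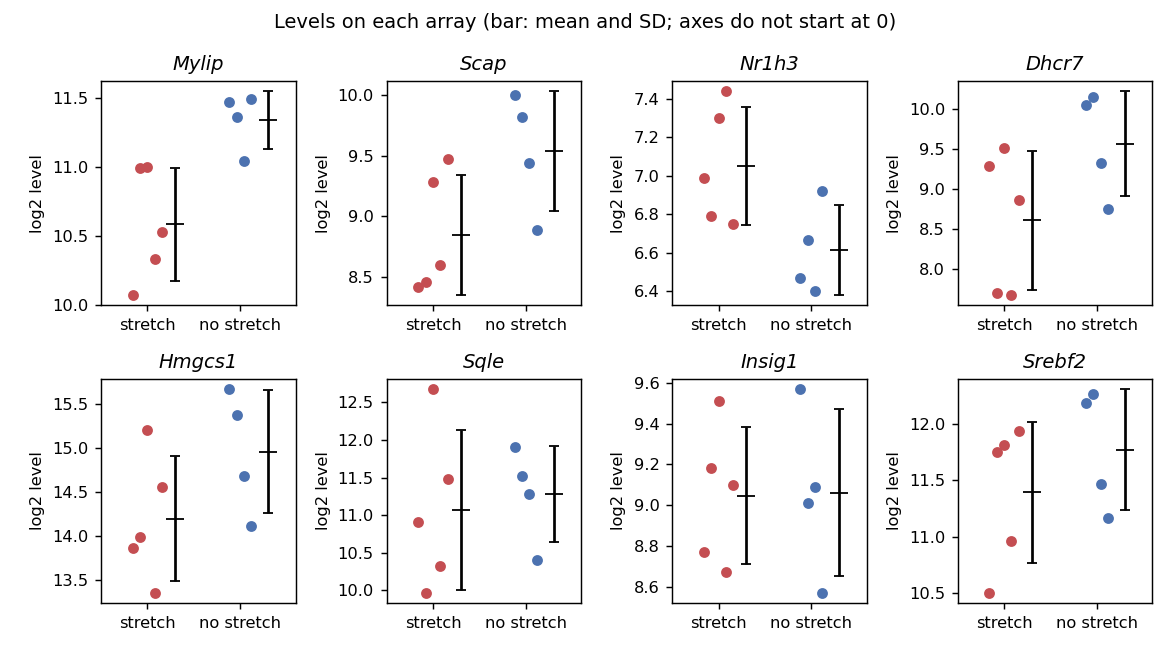
Log2 level on each array for 8 genes, stretched arrays on the left in red and non-stretched arrays on the right in blue, with the mean and SD beside each group (n = 5 and n = 4). The groups of Mylip do not overlap, whereas the values of Sqle, Insig1 and Srebf2 are mixed.

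Transport genes did not pass either. Npc1 and Npc2, which together carry cholesterol out of the lysosome, had changes of 0.21 and 0.12. Npc1 was at 8.02, 8.07, 7.89, 8.31 and 8.40 with stretch, against 8.25, 7.95, 7.53 and 7.97 without. Only non-stretched array 3 lay below the stretched range, and limma adjusted p was 0.662. Stard4, a cytosolic sterol carrier and SREBP target, had a change of -0.33 (95% confidence interval -0.98 to 0.33), with 10.65 on stretched array 3 the highest value of the 9.

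The LXR and efflux genes included the smallest p-value of the 27. Mylip, the LXR target that encodes a ubiquitin ligase for lipoprotein receptors, was at 10.07, 10.99, 11.00, 10.33 and 10.53 with stretch, against 11.47, 11.36, 11.04 and 11.49 without. All stretched arrays were below all non-stretched arrays, narrowly so for stretched arrays 2 and 3 against non-stretched array 3. Mylip averaged 10.58 ± 0.41 (SD, n = 5) in stretched skin and 11.34 ± 0.21 (SD, n = 4) in non-stretched skin, a change of -0.75 (95% confidence interval -1.23 to -0.27) or 1.69-fold lower, with limma adjusted p = 0.179. Over the 18 alternative settings the adjusted p ranged from 0.1 to 0.387 and the gene passed in none.

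Nr1h3, which encodes LXR alpha, had a fitted change in the opposite direction. It was at 6.99, 6.79, 7.30, 7.44 and 6.75 with stretch, against 6.47, 6.67, 6.40 and 6.92 without. Non-stretched arrays 1, 2 and 3 were below every stretched one, and non-stretched array 4 lay inside the stretched range. The change was 0.44 (95% confidence interval 0.01 to 0.87, limma adjusted p = 0.37). The cholesterol efflux pumps Abca1 and Abcg1, the usual readout of LXR activity in macrophages, had changes of 0.06 (-0.47 to 0.59) and 0.22 (-0.39 to 0.82). Abca1 turned to -0.04 under quantile normalization, and without non-stretched array 3 the change of Abcg1 was -0.07.

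**Figure D3:**
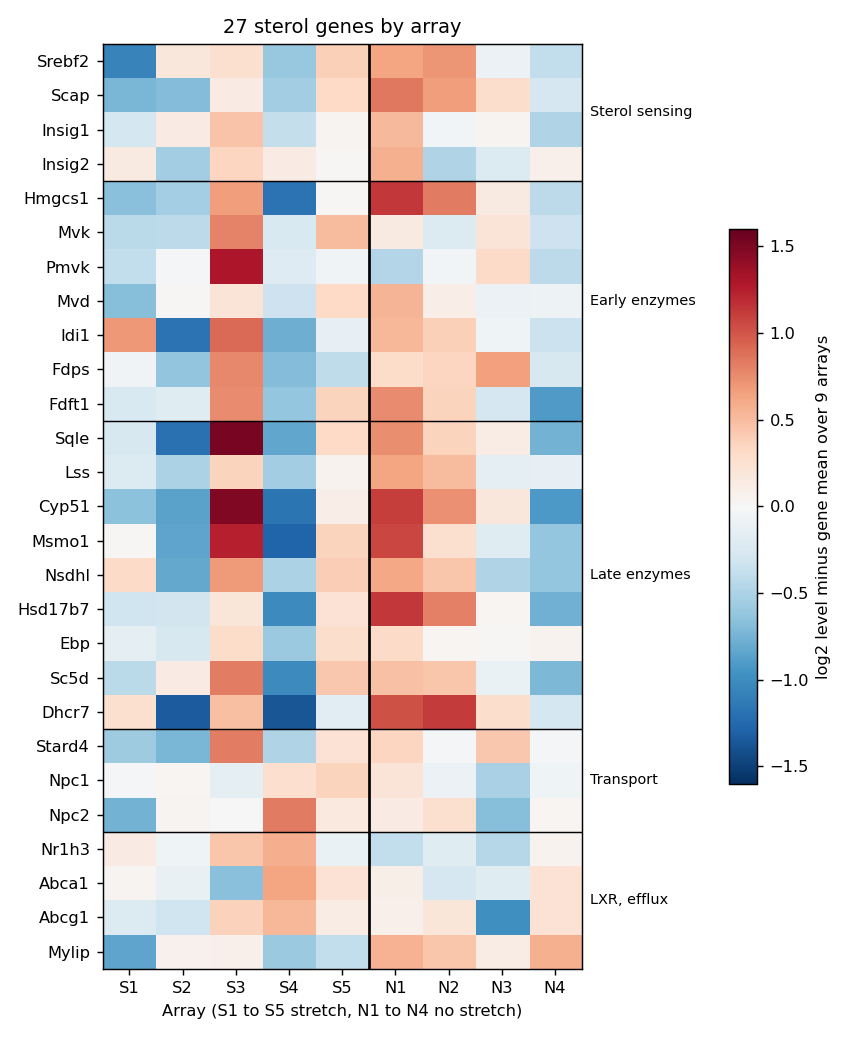
Log2 level of each of the 27 genes on each array minus the gene's mean over 9 arrays, with stretched arrays S1 to S5 left of non-stretched arrays N1 to N4 and genes ordered by role. Columns S3 and N1 are red over most enzymes and columns S4 and N4 blue, so that high and low arrays occur in both groups.

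What the enzymes shared was their variation between arrays of the same group. Over the 16 measured enzymes, the mean level relative to all 9 arrays was -0.20, -0.56, 0.78, -0.78 and 0.16 on the stretched arrays, against 0.63, 0.40, 0.04 and -0.47 on the non-stretched arrays. Stretched array 3 was the highest of its group for 14 of the 16 enzymes and stretched array 4 the lowest for 10. Among non-stretched arrays, array 1 was the highest for 12 enzymes and array 4 the lowest for 12. For Cyp51 the SD within each group was wider than the difference between the groups, as it averaged 11.74 ± 1.06 (SD, n = 5) in stretched skin and 12.24 ± 0.89 (SD, n = 4) in non-stretched skin.

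The enzymes varied together once group means were subtracted. Over the 120 pairs of enzymes the median Pearson r across the 9 arrays was 0.766, all 120 were positive, and 60% were at least 0.7, where 3.5% of all gene pairs on the array reached that value with a median of -0.001. These are descriptions over the same 9 arrays, in which all pairs share libraries. The late enzymes were the tightest, with a lowest r of 0.677 and a median of 0.838 over 36 pairs, while the early enzymes had a median of 0.669 over 21 pairs. The closest pair was Hmgcs1 with Fdft1 (r = 0.985), and Mvd with Idi1 was the loosest (r = 0.084).

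Genes outside the enzyme chain followed it to different degrees. Scap had a median r of 0.791 with the 16 enzymes, Stard4 of 0.668 and Srebf2 of 0.551. Insig2 (0.348), Npc1 (-0.008), Npc2 (-0.076), Nr1h3 (-0.158), Abcg1 (0.133) and Mylip (0.313) followed less. Abca1 ran opposite, with a negative r for all 16 enzymes, between -0.825 for Fdps and -0.256 for Mvd. Abca1 was lowest, at 13.43, on stretched array 3, where the enzymes were highest, and highest, at 14.72, on stretched array 4, where they were lowest.

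**Figure D4:**
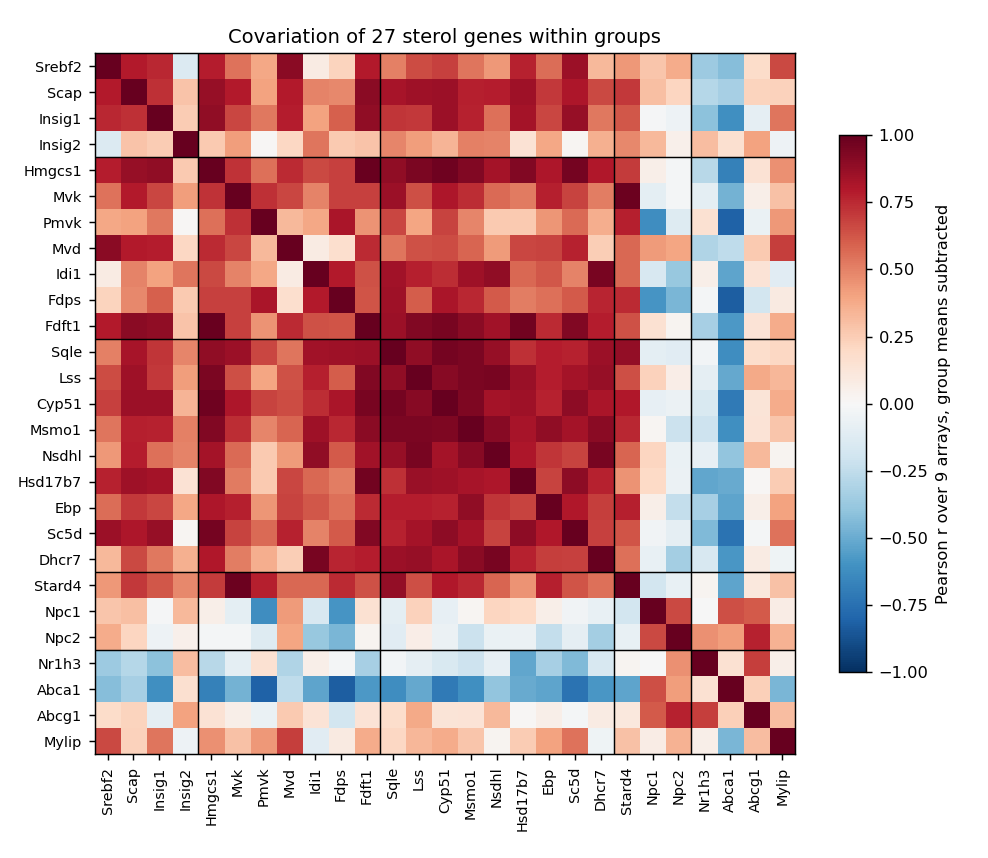
Pearson r between each pair of the 27 genes over 9 arrays after each group's mean was subtracted, ordered by role; red is positive and blue negative. The enzymes, Scap, Insig1 and Stard4 form a red block, and the row of Abca1 is blue against the enzymes.

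The relation to Insig1 was tested for each enzyme by exact permutation of the arrays within groups (two-sided, 2880 orders, Benjamini-Hochberg over 16 enzymes). All 16 r values were positive, from 0.406 for Idi1 to 0.89 for Fdft1. At an adjusted p under 0.05, 5 of 16 passed: Hmgcs1, Fdft1, Cyp51, Hsd17b7 and Sc5d. These 5 also varied with one another (r = 0.845 to 0.985), so they are not separate results. The share of all genes that would pass against Insig1 was not counted, so whether 5 of 16 is unusual is not known. Hmgcs1 had r = 0.884 (exact permutation p = 0.0059, adjusted p = 0.029) and Spearman's rho of 0.85 (exact permutation p = 0.0076, adjusted p = 0.056). Without the arrays on which Insig1 was farthest from its median, non-stretched arrays 1 and 4, r for Hmgcs1 was 0.825, and r over the 16 enzymes lay between 0.268 and 0.88. By Spearman's rho 0 passed after adjustment, and 6 had an unadjusted exact permutation p under 0.05. The count was not stable when 1 array was left out. It was 0 without stretched array 1, 3 or 4 or without non-stretched array 1, 3 or 4, and 9 without stretched array 2. Leaving out an array also leaves fewer orders to permute, and the part of this in the count was not tested.

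Sequences before the transcription start were examined for motifs of the factors that are known to switch on these genes. RefSeq promoter windows (GRCm38.p6, 250 bases before to 50 after each start) matched 24 of the 30 genes; Fdps, Fdft1, Sqle, Stard4, Npc1 and Abcg1 were not matched. A sterol regulatory element, searched as TCACNCCAC on both strands, was found in 1 of the 24, Hmgcs1, and in 1.44% of all genes in the table. Its shorter core, CACNCCAC, which every full match also contains, was found in Acat2, Hmgcs1 and Insig1, and in 7.12% of all genes. The NF-Y box, CCAAT or ATTGG on the other strand, bound by a factor that works beside SREBP, was found in 20 of the 24 genes, in 14 of the 15 enzymes among them and in 41.1% of all genes (42.3% of protein-coding ones). A match is a description of the letters, and a window without one says nothing of the factor. A gene with several starts was counted if any of its windows held the motif.

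The promoters below are of Hmgcs1, the gene with the full element and r = 0.884 to Insig1, of Insig1 itself, of Mvk, which had the most NF-Y boxes (5), and of Mylip, the gene without overlap between the groups. Capitals mark the sterol regulatory element or its core and the NF-Y boxes, and each is written 5′ to 3′ on the strand of its gene.
Hmgcs1 promoter, chr13:119690101-119690400 (+ strand): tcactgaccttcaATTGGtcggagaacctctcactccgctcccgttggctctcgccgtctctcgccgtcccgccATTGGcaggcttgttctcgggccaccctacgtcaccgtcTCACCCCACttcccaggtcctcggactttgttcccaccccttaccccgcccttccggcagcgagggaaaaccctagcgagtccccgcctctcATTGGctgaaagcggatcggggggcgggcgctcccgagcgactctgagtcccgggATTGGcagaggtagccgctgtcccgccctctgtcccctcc
Insig1 promoter, chr5:28071162-28071461 (+ strand): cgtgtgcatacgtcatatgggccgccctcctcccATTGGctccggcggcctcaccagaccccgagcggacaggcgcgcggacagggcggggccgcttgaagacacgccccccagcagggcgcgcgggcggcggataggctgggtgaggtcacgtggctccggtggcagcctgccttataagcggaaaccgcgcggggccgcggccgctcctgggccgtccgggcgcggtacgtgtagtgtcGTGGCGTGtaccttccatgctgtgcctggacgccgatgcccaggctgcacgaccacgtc
Mvk promoter, chr5:114444019-114444318 (+ strand): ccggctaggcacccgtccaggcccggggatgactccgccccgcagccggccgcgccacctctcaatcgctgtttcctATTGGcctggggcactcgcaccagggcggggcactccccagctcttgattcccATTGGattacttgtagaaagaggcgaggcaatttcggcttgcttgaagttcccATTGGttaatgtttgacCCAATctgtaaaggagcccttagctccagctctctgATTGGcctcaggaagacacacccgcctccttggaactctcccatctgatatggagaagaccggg
Mylip promoter, chr13:45389492-45389791 (+ strand): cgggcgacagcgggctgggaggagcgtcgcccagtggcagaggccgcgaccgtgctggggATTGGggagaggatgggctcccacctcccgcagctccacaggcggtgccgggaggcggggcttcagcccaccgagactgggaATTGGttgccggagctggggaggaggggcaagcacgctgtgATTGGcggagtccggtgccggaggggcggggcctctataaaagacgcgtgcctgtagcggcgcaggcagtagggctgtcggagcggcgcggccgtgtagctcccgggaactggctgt
In the Hmgcs1 window the element TCACCCCAC starts 137 bases before the transcription start, between NF-Y boxes that start 176 and 45 bases before it. The Insig1 window has the core on the opposite strand, GTGGCGTG, 9 bases before the start.

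Further genes of the pathway, 41 measured of 48 listed, were read in the same fit. Of the proteases, membrane ligases and other membrane proteins that act on SREBP, INSIG and their partners, 0 of 5 passed in limma after adjustment. An unadjusted p under 0.05 was found for 1 of them (20%, against 13.0% of all genes). Rnf145, a ubiquitin ligase of the endoplasmic reticulum, had the smallest p there, with a change of -0.61 and limma adjusted p = 0.246. Mbtps1, the first protease that cuts SREBP, had a change of -0.27, and Rnf139 and Erlin2 of 0.30 and 0.01. Of 19 other SREBP targets and sterol enzymes 0 passed in limma, and 4 had an unadjusted p under 0.05 (21.1%, against 13.0% of all genes). Ch25h, which makes an oxysterol that both retains SREBP and activates LXR, was at 5.58, 5.20, 6.20, 7.36 and 5.05 with stretch, against 4.26, 3.30, 3.83 and 4.62 without. The groups did not overlap, as for 4.54% of all genes, and the change was 1.88 (95% confidence interval 0.92 to 2.83), with limma adjusted p = 0.102. All non-stretched values of Ch25h, and those on stretched arrays 1, 2 and 5, lay below the array medians given above. Without detection calls, the size of its change is uncertain.

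Cyp7b1, which breaks that oxysterol down, had a change of 0.83 with adjusted p = 0.24. Aacs, which feeds acetoacetate into the pathway, and Acly, the source of cytosolic acetyl-CoA, had changes of -0.83 and -0.51, with limma adjusted p = 0.178 and 0.321. Of 6 LXR partners and targets 0 passed in limma and 2 had an unadjusted p under 0.05 (33.3%, against 13.0% of all genes). All 6 changes were negative, as were 50.4% of all genes; those of smallest p were Abcg4, a sterol pump (-1.34), Rxra, the partner receptor (-0.51), Lpcat3, a phospholipid acyltransferase (-0.49), and Pltp, a phospholipid transfer protein (-0.50).

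The fatty acid genes that SREBP-1 controls gave the only passes among these lists, with 2 of 11 lower and none higher (0.164% of all genes were called lower). Fasn, fatty acid synthase, was at 8.20, 9.05, 10.04, 8.45 and 9.62 in stretched skin, against 10.94, 11.73, 11.93 and 10.69 in non-stretched skin. Every stretched array was below every non-stretched one. Fasn fell by 2.25 on the log2 scale (limma adjusted p = 0.0452). Thrsp, a lipogenic regulator, was at 7.04, 6.36, 7.40, 6.36 and 7.76 in stretched skin, against 9.11, 8.96, 10.79 and 9.47 in non-stretched skin. Its groups did not overlap either, and Thrsp fell by 2.60 on the log2 scale (limma adjusted p = 0.0294). Both calls were lost in some fits that left out 1 array, although the fitted changes kept their sign. Such fits also rest on fewer arrays, and the part of this in the lost calls was not tested. With single arrays left out, the change lay between -2.49 and -2.03 for Fasn and between -2.81 and -2.20 for Thrsp. Among the 9 fits that each left out 1 array, Fasn passed only without stretched array 3 or non-stretched array 4, and Thrsp did not pass without stretched array 2 or 4 or non-stretched array 1, 2 or 3. Without non-stretched array 3 the adjusted p was 0.143 for Fasn and 0.0677 for Thrsp. Leaving out other arrays gave adjusted p between 0.0137 and 0.128 for Fasn and between 0.022 and 0.0859 for Thrsp. Elovl6 and Elovl5, fatty acid elongases, had changes of -2.86 and -0.94 without passing (limma adjusted p = 0.0553 and 0.145). Elovl6 lay near the threshold, with adjusted p between 0.015 and 0.216 over the alternatives. The median change of the 11 fatty acid genes was -0.94, beside -0.22 for the 16 sterol enzymes; whether the lists differ was not tested.

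Within groups, fatty acid genes varied with the sterol enzymes to unequal extents. Me1, which supplies NADPH for lipid synthesis, had a median r of 0.826 with the 16 enzymes, Elovl6 of 0.779 and Acaca, acetyl-CoA carboxylase, of 0.73, whereas Thrsp had 0.247 and Scd1, a desaturase, 0.144. Fads2, another desaturase, had a median r of -0.45.

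Markers of cell types that make or store lipid, or that invade inflamed skin, also varied between the arrays. Sebaceous gland markers had negative changes for 9 of 10 genes (90%, against 50.4% of all genes). None passed in limma after adjustment, and 9 had an unadjusted p under 0.05 (90%, against 13.0% of all genes). These 9 were not the same as the 9 negative ones. They included Plin2, which was higher with stretch (1.21, limma adjusted p = 0.177), and left out Awat2 (-0.59, limma adjusted p = 0.517). The mean level of the sebaceous markers was 7.00 to 8.41 on stretched arrays, against 8.33 to 9.74 on non-stretched arrays. Fa2h and Scd3, both of sebaceous lipid synthesis, had changes of -2.95 and -2.76 (limma adjusted p = 0.0501 and 0.0534). Both lay at the threshold and passed under some settings: with quantile normalization the adjusted p was 0.0427 for Fa2h and 0.0478 for Scd3, and over the alternatives it ranged from 0.00549 to 0.162 for Fa2h and from 0.00628 to 0.187 for Scd3. Granular keratinocyte markers were negative for 9 of 10, with a mean level of 10.33 to 12.28 on stretched arrays, against 11.91 to 12.43 on non-stretched ones. Adipocyte markers were negative for 8 of 9, at 8.86 to 9.88 on stretched arrays, against 9.91 to 10.52 on non-stretched ones. Neutrophil markers were positive for 7 of 7, at 11.73 to 13.06 on stretched arrays, against 9.75 to 10.98 on non-stretched ones. Macrophage markers were also positive for 7 of 7, at 11.54 to 13.35 on stretched arrays, against 11.32 to 12.54 on non-stretched ones. Several sebaceous markers were low. Mc5r, at 2.75 to 4.26, lay below the array medians given above on every array. Dgat2l6, at 3.15 to 6.25, lay below them on all arrays but non-stretched array 2. Awat1 lay below them on stretched arrays 1, 2, 4 and 5, and Awat2 on most arrays. No detection calls were used, so the sizes of these changes are uncertain. The markers of smallest p were Plin1 (-1.51) and Adipoq (-1.75) for adipocytes and Flg2 (-1.74) and Lor (-0.98) for granular cells. For neutrophils they were Clec4e (3.18) and Mmp9 (1.74), and for macrophages Cd14 (2.26) and Msr1 (1.66). None of these passed the test. Of these Plin1 and Clec4e lay near the threshold, with limma adjusted p between 0.0288 and 0.151 and between 0.00737 and 0.187 over the alternatives. Other markers of both lists changed less. The neutrophil changes ran from 0.54 (S100a9) to 3.96, with a median of 1.74. The macrophage changes ran from 0.34 (Adgre1) to 2.26, with a median of 0.67. Mmp9 lay below the array medians on non-stretched arrays 1, 3 and 4. Basal and spinous keratinocyte markers were negative for 6 of 9 with a median change of -0.08. Those of smallest p, Itga6 and Krt14, had changes of 0.77 and 0.56. Krt1 was at 19.91 to 19.93 on all arrays but stretched array 4 (19.62). Whether such high values are compressed at the top of the scale was not tested. Skeletal muscle markers had a mean level of 13.51 to 15.46 on stretched arrays, against 14.20 to 14.94 on non-stretched ones, with changes of 0.99 for Actn3 and -0.81 for Ckm. Dermal fibroblast markers were negative for 6 of 6, and 1, Dpt, fell by 2.30 on the log2 scale (limma adjusted p = 0.0253), while Col1a2 had a change of -0.82. Dpt did not pass without stretched array 2 or non-stretched array 1, 2 or 3 (adjusted p = 0.0754 to 0.0915), and the mean fibroblast level was 15.62 to 16.15 on stretched arrays, against 16.69 to 17.01 on non-stretched ones.

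These markers also moved within groups. On stretched array 3, where the sterol enzymes were highest, the mean of the macrophage markers stood at -0.78 relative to all 9 arrays, the lowest of the stretched arrays, and that of the sebaceous markers at 0.09, the highest of them. On stretched array 4, where the enzymes were lowest, the macrophage mean was 1.04, as on stretched array 1, and the sebaceous and granular means were -1.32 and -1.41. On non-stretched array 1 the sebaceous mean was 1.43, and on non-stretched array 4 it was 0.02, the lowest of its group. Basal and spinous keratinocyte markers were at -0.74 on stretched array 4 and between -0.07 and 0.27 on the other 8 arrays. Other arrays showed a different order. On stretched array 5 the enzyme mean was 0.16 and the sebaceous mean -0.72. Non-stretched array 3 had the lowest macrophage mean of the 9 arrays, -0.99, with the enzyme mean at 0.04. Skeletal muscle markers were also highest on stretched array 3, at 0.8. The part of these cell types in the levels of the sterol genes was not tested.

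**Figure D5:**
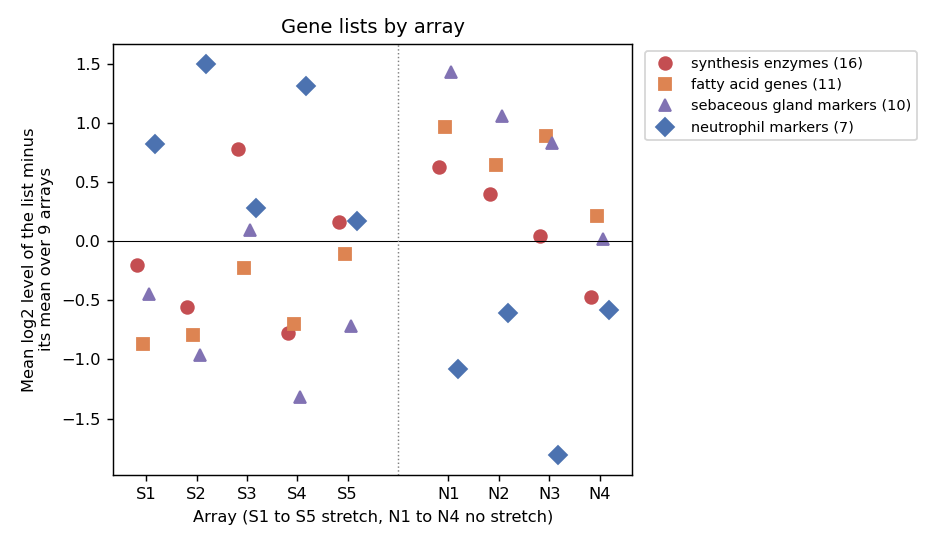
Mean log2 level of 4 gene lists on each array minus the list's mean over 9 arrays, with stretched arrays S1 to S5 left of non-stretched arrays N1 to N4. Fatty acid genes lie below 0 on all 5 stretched arrays and above 0 on all 4 non-stretched ones, whereas the sterol enzymes lie on both sides of 0 in each group.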

How the data were processed

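The authors deposited log2 values of 22206 features for each of 9 arrays. Per the submitters' processing notes, RMA and Transcriptome Analysis Console made these log2 values; the sources used here give no versions, genome build or filters. As a method, RMA models background, normalizes arrays and summarizes probes, so low values can be compressed. Detection calls were not used here. Arrays were grouped by their titles. Symbols came from the platform annotation, which named 1 gene for 19572 features and left 2634 unnamed here; an Entrez lookup in RefSeq (GRCm38.p6) changed no symbol. For the 55 genes with more than 1 feature, that of highest mean was kept, which left 19505 genes.

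Stretch minus no stretch was fitted in limma 3.58.1 (lmFit, eBayes; R 4.3.3) without covariates, and two-sided p-values were adjusted over all genes by the Benjamini-Hochberg method. Covariation used exact permutation within groups (NumPy 2.4.6, Python 3.11.15). The gene test and the permutation were tested on simulated data.

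The members and lists were chosen with earlier results of these data known. All 27 genes are accounted for; values on every array are given for the 10 of smallest p, the one of smallest p in each role, and Srebf2, Insig1, Hmgcs1 and Sqle. Up to 4 genes of each further list and up to 2 of each marker list, by p, are named with their change, and of these Ch25h, Fasn and Thrsp also with values on every array. Any other gene named was picked with its values in view. As alternatives, arrays were left out or weighted, normalization, centring, low-gene filter, feature choice and variance model were changed, and a replicate block and another threshold were tried.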

Additional observations from a re-analysis of the deposited data

Results flagged for a closer look

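Of 118 groups of arrays tested (59 named genes in both groups), 6 held 1 array that stood apart from the rest by Dixon's test at its 95% critical value, a rate that chance gives for about 1 group in 20. Among the 27 sterol genes there were 3. Pmvk was at 10.12 on stretched array 3, where the next highest stretched array was at 8.80. Ebp was at 10.91 on non-stretched array 1, above 10.66 on the next, and Abcg1 was at 8.33 on non-stretched array 3, below 9.40 on the next. Among the other genes named, Cyp7b1 was at 8.38 on non-stretched array 3, where the next lowest was 9.38. Col1a2, a fibroblast collagen gene, was at 16.11 on non-stretched array 4, and Actn3, of skeletal muscle, at 10.39 on stretched array 1.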

How the results depend on the processing

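None of the 27 sterol genes passed an adjusted p of 0.05 in limma under any of the 18 alternatives, and the smallest adjusted p was 0.1. Of 486 fitted changes under alternatives, 435 kept their sign and 51 turned, in 13 genes and 34 of them on leaving out 1 array; the cause was not tested. The median change of the 27 genes lay between -0.286 and 0.0025 when single arrays were left out. Over all genes, 48 passed; 105 did without the 25% of genes of lowest level (fewer genes tested), 157 with array weights, 211 at an adjusted p under 0.1, 15 without non-stretched array 3 and stretched array 1 together, and 2 to 195 without single arrays (2 without stretched array 2 or non-stretched array 3, 195 without stretched array 3). With the replicate number as a block, 221 genes passed and 0 of the 27, and their median change was -0.28. Deviations from the group mean had r = -0.06, -0.02, 0.06 and 0.34 between same-numbered arrays. Only for number 4 was no other non-stretched array closer to the stretched one. These values do not settle whether the numbers pair samples. The block turned Mvk to -0.0214, Fdft1 to -0.0578 and Nsdhl to -0.0735. Quantile normalization turned Fdft1 to -0.0507, Nsdhl to -0.0374 and Abca1 to -0.0401. Median centring turned Insig1 to 0.0543 and Sc5d to 0.0318. Array weights turned Insig1 to 0.0267, Insig2 to -0.0469, Nsdhl to -0.0661 and Sc5d to 0.0136. Leaving out the pair of arrays turned Insig1 to 0.0656, Insig2 to -0.0746, Nsdhl to -0.2071, Sc5d to 0.0263 and Abca1 to -7e-04. Without single arrays the changes ranged from -0.1753 to 0.1548 for Insig1, -0.1294 to 0.2195 for Insig2, -0.0955 to 0.2137 for Mvk, -0.0132 to 0.4341 for Pmvk, -0.4803 to 0.0379 for Idi1, -0.2689 to 0.2867 for Fdft1, -0.608 to 0.0687 for Sqle, -0.5651 to 0.0847 for Msmo1, -0.1786 to 0.2338 for Nsdhl, -0.2831 to 0.2149 for Sc5d, -0.0797 to 0.3252 for Npc2, -0.092 to 0.2317 for Abca1 and -0.0712 to 0.3316 for Abcg1. The number of enzymes that covaried with Insig1 was 5, 0 by Spearman's rho, and 0 to 9 without single arrays. Fasn did not pass with all features kept apart (adjusted p = 0.0549). Elovl6, Fa2h, Scd3, Plin1 and Clec4e, just short of the threshold, passed with array weights (adjusted p = 0.0432, 0.0344, 0.038, 0.0314 and 0.0344), without the genes of lowest level and without stretched array 3. The number of arrays limits the precision, and without detection calls low values have no stated background.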
